A study of Sus scrofa with 120 samples.

Results

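The comparison described here asked what cyclic compression did to the transcriptome of primary pig chondrocytes when the ion channel TRPV4 was blocked, 9 h after the stimulus began. Its members are 8 of the 120 libraries of the series, chosen by their titles: 4 from constructs that were loaded in the presence of GSK205 and 4 from constructs given GSK205 alone. The cells came from femoral cartilage, carried no genetic modification (the labels give the genotype as WT/NT) and were cast in 2% agarose to form cartilage-like constructs. Loading was unconfined compression of 10% peak-to-peak deformation at 1 Hz for 3 h, so the 9 h harvest followed a period without loading. GSK205, a TRPV4 antagonist, is given as 10 uM in the series description and in mM in the sample labels, and the micromolar value is used here. Set beside these were 4 libraries loaded without GSK205 and 4 free-swelling libraries given the vehicle DMSO, all at 9 h, as well as 4 libraries loaded with GSK205 and 4 given GSK205 alone at 3 h. All these groups share the agarose, the serum-containing medium and, in the labels, the cell source. The statistical models also held groups given the TRPV4 agonist GSK101 or IL-1, whose own results are not described here. The labels do not say whether the 4 libraries of a group came from different animals, so the p-values measure the spread between these samples, which may be technical. The labels do not report how completely GSK205 closed the channel in these constructs.

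TRPV4 is a calcium-permeable cation channel that opens in response to osmotic and mechanical stimuli and is abundant in articular chondrocytes, where it is known to carry part of their response to moderate, physiologic compression. Chondrocytes also express PIEZO1, integrins, primary cilia and growth factor receptors, through which compression can act without TRPV4. A mechanical or calcium stimulus typically induces immediate early genes such as FOS, JUNB and ATF3 within the hour, followed by feedback inhibitors and later by secreted factors and matrix genes.

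The 8 libraries held chondrocyte transcripts throughout. COL2A1, the main collagen of cartilage, lay between 34700 and 44500 CPM (counts scaled to the library's TMM-normalised total) and the proteoglycan gene ACAN between 14100 and 17500 CPM. The summed level of the 8 chondrocyte markers was 76900 to 82100 CPM in constructs loaded with GSK205 and 67800 to 77300 CPM with GSK205 alone. The 5 fibroblast markers summed to 562 to 603 CPM against 496 to 544 CPM, and the 5 leukocyte markers to 27.8 to 32.9 CPM against 22.6 to 33.1 CPM. The defining leukocyte gene PTPRC stayed at or below 0.0752 CPM and the erythroid gene HBB at or below 0.0581 CPM. Whether the difference in summed fibroblast markers plays a part in any result was not tested. In bulk libraries of this kind, fewer cells of a type and less RNA per cell cannot be told apart. Total counts were 30861957 to 40167217 in constructs loaded with GSK205 and 21979662 to 27721944 with GSK205 alone, so the groups did not overlap in depth. GSK205 library 4 stood apart, with 14.1% of its counts on small, ribosomal and transfer RNAs against 6.49% to 8.36% in the other GSK205 libraries and 5.82% to 7.52% in those loaded with GSK205. The count obtained without that library is given below where it differed by over 1.5 times.

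Loading still changed the transcriptome with GSK205 present. Of 16540 genes tested, 2981 (18%) differed between loading with GSK205 and GSK205 alone in edgeR's quasi-likelihood test at a Benjamini-Hochberg adjusted p under 0.05, with 1459 higher (8.82%) and 1522 lower (9.2%). Most differences were small. The median size of a called change was 0.28 on the log2 scale, 83.3% of the called genes changed by less than 0.5, and 50 genes (0.302%) rose and 47 (0.284%) fell by at least 2-fold. The median over all genes tested was -0.00487. The 2 groups did not overlap in CPM for 3010 genes (18.2%), of which 1517 (9.17%) were higher and 1493 (9.03%) lower with loading. Protein-coding genes made up nearly all calls, with 1418 higher and 1439 lower of 14023, whereas 19 long non-coding RNAs were higher and 63 lower of 1675. With only the 8 compared libraries in the model, 2292 of 14687 genes were called, of which 2252 were among the 2981. With all libraries thinned at random to the same total of 20651530 counts, 2491 genes were called, of which 2395 were among the 2981. Without GSK205 library 4 the count was 2775, of which 2366 were among the 2981. The count was lowest, at 2198, without library 2 of the loaded group, the deepest of the 8.

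**Figure D1:**
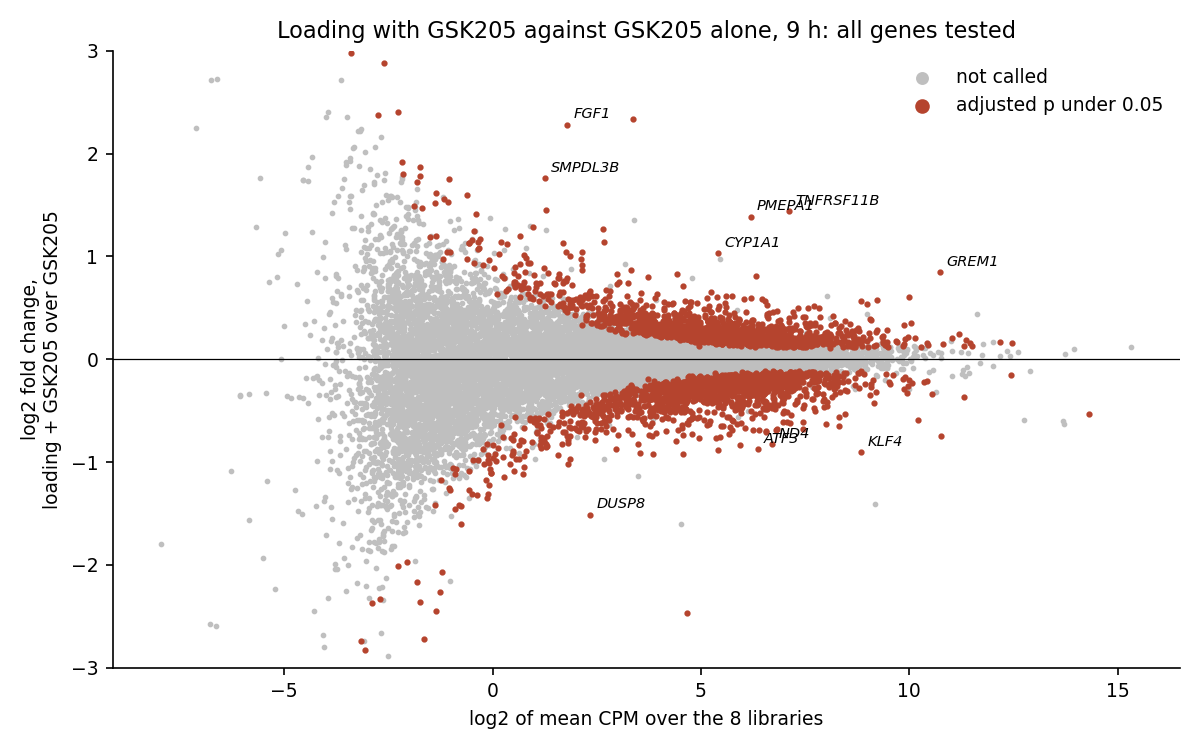
Each point is a gene, with the log2 of its mean CPM over the 8 libraries on the horizontal axis and its log2 fold change, loading with GSK205 over GSK205 alone at 9 h, on the vertical axis, which ends at 3 in either direction. The 2981 called genes lie on both sides of 0 at every level of expression, and FGF1 (2.28) stands highest among the labelled genes.

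FGF1, TNFRSF11B and PMEPA1 were among the genes that rose most. Only genes whose 2 groups did not overlap entered this ranking, so separate groups were a condition of it. FGF1, a growth factor that binds all FGF receptors, had 5.55, 8.19, 5.14 and 4.05 CPM with loading and GSK205, against 1.81, 1.54, 0.746 and 0.741 CPM with GSK205. Every loaded library was above every unloaded one, and the log2 fold change was 2.28 ± 0.21 (SE, adjusted p = 4.3e-09; chr2:144133846-144241345).

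TNFRSF11B (chr4:19850212-19879132) encodes osteoprotegerin, the soluble decoy receptor that keeps RANKL from driving osteoclast formation. The deposited annotation gives the biotype of this entry as pseudogene, and its symbol came from a separate list of gene names. TNFRSF11B had 201, 225, 202 and 180 CPM in constructs loaded with GSK205 and 84.9, 71.2, 68.8 and 72.8 CPM with GSK205 alone, a log2 fold change of 1.44 ± 0.06 and an adjusted p of 5.7e-17. PMEPA1, a membrane protein induced by TGF-beta that restrains SMAD signalling (chr17:57999287-58054329), had 114, 119, 107 and 83.7 CPM with loading and GSK205 against 36.6, 47.3, 38.6 and 40.1 CPM with GSK205 (1.39 ± 0.10, adjusted p = 1.3e-11). The groups did not overlap for either gene, as the ranking required. INHBA, the subunit of activin A, averaged 4.89 ± 0.938 CPM against 2.42 ± 0.380 CPM (SD, n = 4 each; log2 fold change 1.00 ± 0.18, adjusted p = 0.00016). The RefSeq position matched to INHBA was in doubt and is not given.

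CYP1A1, a monooxygenase that is the classical target of the aryl hydrocarbon receptor, had 54.3, 58.8, 57.1 and 58.0 CPM with loading and GSK205 against 31.6, 26.7, 23.6 and 29.5 CPM with GSK205 (1.04 ± 0.11, adjusted p = 3.5e-08). GREM1, a secreted antagonist of BMPs, had 2118, 2291, 2131 and 2212 CPM against 1291, 1344, 1232 and 1004 CPM (0.85 ± 0.07, adjusted p = 1.9e-10). HSPA8, the constitutive cytosolic HSP70, had 1214, 1280, 1232 and 1221 CPM against 922, 767, 761 and 802 CPM (0.61 ± 0.05, adjusted p = 2.6e-10). In all 3 genes the lowest loaded library lay above the highest unloaded one.

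The other genes among the 15 with the strongest rise were expressed at low levels. SMPDL3B, a lipid-modifying phosphodiesterase of the cell surface, averaged 3.66 ± 1.11 CPM against 1.09 ± 0.342 CPM (1.76 ± 0.22, adjusted p = 7.3e-07). The chromatin protein HMGB3 had a log2 fold change of 1.29 ± 0.24, CAPS2 of 1.2 ± 0.27, the sorbitol dehydrogenase SORD of 1.13 ± 0.19, the atypical kinase MAPK4 of 1.05 ± 0.16 and the glutamate receptor auxiliary subunit NETO2 of 1.04 ± 0.16. ARG1, which degrades arginine, followed at 1.02 ± 0.18, the glycine methyltransferase GNMT at 0.99 ± 0.27 and NRIP3 at 0.97 ± 0.14. GNMT overlaps PEX6, and TNFRSF11B overlaps COLEC10. Other genes named below overlap a gene as well, among them RASGRP4 (FAM98C), BACH2 (GJA10), UHRF1 (ARRDC5), FILIP1L (CMSS1) and LRRC73 (TJAP1). Reads from overlapping genes can be mixed, since the strand setting of the counting is not given in the sources used here.

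**Figure D2:**
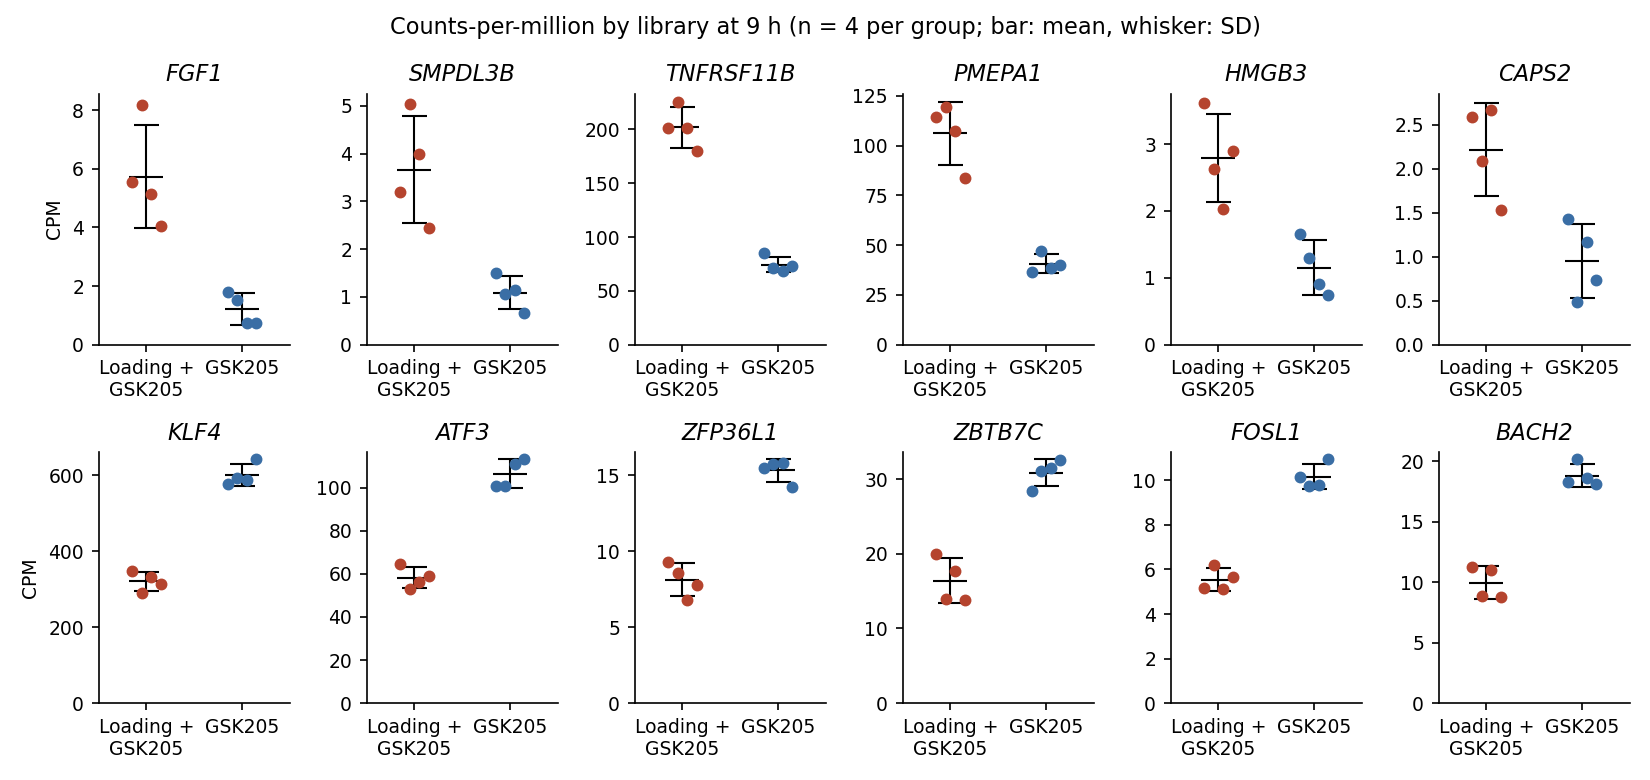
CPM in each library at 9 h for 12 genes, 6 of those with the largest rise in the upper row and, of the genes with the largest fall, the 6 with the smallest p in the lower row. Loading with GSK205 stands left of GSK205 alone, dots are the 4 libraries of a group, the bar is their mean and the whisker their SD. The genes were chosen only among those whose 2 groups do not overlap, as when KLF4 lies at 289 to 347 CPM with loading and at 577 to 644 CPM without.

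KLF4, ATF3 and DUSP8 were among the genes that fell most. KLF4, a zinc finger factor of the immediate early class (ENSSSCG00000005437, chr1:248604817-248609574), had 347, 289, 333 and 314 CPM in constructs loaded with GSK205, against 577, 593, 589 and 644 CPM with GSK205 alone (-0.90 ± 0.05, adjusted p = 2.4e-13). ATF3, a stress-induced repressor (chr9:130772259-130829678), had 64.7, 53, 56.4 and 58.9 CPM against 100.9, 100.6, 111 and 113 CPM (-0.87 ± 0.06, adjusted p = 1.3e-11). FOSL1, an AP-1 subunit, had 5.17, 6.20, 5.11 and 5.68 CPM against 10.2, 9.73, 9.80 and 11 CPM (-0.87 ± 0.09, adjusted p = 1.7e-08). The loaded libraries lay below the unloaded ones throughout for these genes, as the choice of genes required.

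Among genes with a symbol, separate groups and at least 2 CPM in the higher group, the largest fall was that of DUSP8, a phosphatase that inactivates stress-activated MAP kinases, with 3.73, 2.11, 3.31 and 1.48 CPM against 4.85, 8.51, 8.40 and 8.40 CPM (-1.51 ± 0.26, adjusted p = 0.00011). GSK205 library 1 was well below the other unloaded libraries for DUSP8 but still above every loaded one. ZFP36L1, which destabilises AU-rich mRNAs, averaged 8.12 ± 1.08 CPM against 15.3 ± 0.753 CPM (-0.91 ± 0.08). The transcription factors ZBTB7C (-0.92 ± 0.09), BACH2 (-0.92 ± 0.10), TCF7L1 (-1.02 ± 0.17), DLX3 (-1.12 ± 0.23), MSC (-0.93 ± 0.17), NR4A3 (-0.86 ± 0.19) and CASZ1 (-0.85 ± 0.20) fell as well, as did RASGRP4 (-1.05 ± 0.25), an activator of Ras, and the peptide receptor RXFP4 (-0.97 ± 0.23). The mitochondrial gene ND6 (-0.88 ± 0.11) overlaps ND5 on the mitochondrial genome.

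Immediate early genes were lower as a group at 9 h. Of 32 tested, 23 fell against a background of 9.2% of all genes, all 32 had a negative log2 fold change with TMM scaling, and their median was -0.525. Besides KLF4, ATF3 and FOSL1, KLF10 had a log2 fold change of -0.73 ± 0.06, FOSL2 of -0.69 ± 0.05, EGR1 of -0.56 ± 0.09 and JUNB of -0.38 ± 0.07. FOS (-0.20 ± 0.07, adjusted p = 0.067), JUN (-0.52 ± 0.20, adjusted p = 0.073) and FOSB (-0.06 ± 0.12, adjusted p = 0.79) did not pass the test. The ERK feedback list, which holds ETV4, ETV5 and DUSP8 beside feedback inhibitors of the pathway, had 10 of 17 lower (median -0.425). Among them, the MAP kinase phosphatase DUSP1 averaged 102 ± 4.91 CPM against 148 ± 7.27 CPM (-0.53 ± 0.04), and SPRY2, which blocks receptor signalling upstream of Ras, 40.2 ± 4.07 CPM against 59.2 ± 0.935 CPM (-0.56 ± 0.05). PHLDA1 (-0.63 ± 0.07) and SPRED2 (-0.82 ± 0.10) fell too. Genes of the calcineurin, NFAT and CREB axis, through which calcium reaches the nucleus, had 12 of 20 lower (median -0.313). RCAN1, a calcineurin inhibitor that NFAT induces, averaged 178 ± 6.69 CPM against 253 ± 14.1 CPM (-0.50 ± 0.05), with CREB5 (-0.57 ± 0.07), NFATC1 (-0.43 ± 0.06) and NFATC2 (-0.50 ± 0.09) also lower. NR4A1 and SIK1 belong to this list and to the immediate early list. Without GSK205 library 4, 21 immediate early, 8 ERK feedback and 13 calcineurin-axis genes fell.

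In several stress and inflammatory lists more members fell than rose, and each list's share that fell was above the 9.2% of all genes, although in most of them the members that fell were a minority. Targets of ATF4, the factor of the integrated stress response, had 15 of 24 lower and 1 higher (median -0.241). SESN2, a stress-induced inhibitor of mTORC1, averaged 51.8 ± 5.49 CPM against 82.1 ± 4.90 CPM (-0.67 ± 0.06), and TRIB3 (-0.45 ± 0.05), CEBPB (-0.52 ± 0.07), the seryl-tRNA synthetase SARS1 (-0.32 ± 0.04) and ATF4 itself (-0.23 ± 0.04) fell, while NUPR1 rose (0.15 ± 0.04). Genes of the NF-kB pathway had 11 of 29 lower and 1 higher (median -0.195). The inhibitor NFKBIE averaged 52.1 ± 3.11 CPM against 73.0 ± 4.98 CPM (-0.49 ± 0.05), and NFKBIZ (-0.43 ± 0.05), RELA (-0.35 ± 0.05), RELB (-0.49 ± 0.06) and NFKB2 (-0.44 ± 0.06) fell, while the interleukin-1 receptor IL1R1 rose (0.29 ± 0.08). Among circadian clock genes 9 of 19 fell (median -0.258), led by BHLHE40 (-0.45 ± 0.05) and including CRY1 (-0.32 ± 0.06), PER1 (-0.45 ± 0.13) and PER2 (-0.57 ± 0.16). Of the p53 targets, 8 of 18 fell and 1 rose (median -0.146), with the cell cycle inhibitor CDKN1A at 111 ± 4.47 CPM against 171 ± 7.83 CPM (-0.62 ± 0.05) and GADD45A at -0.47 ± 0.08. SESN2 is counted in the p53 list as well, and NFIL3 in both the clock and the immediate early lists. Hypoxia targets had 8 of 19 lower (median -0.17), VEGFA by -0.50 ± 0.06, BNIP3 by -0.41 ± 0.05 and NDRG1 by -0.32 ± 0.05, but 5 without GSK205 library 3 or without library 1 of the loaded group.

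**Figure D3:**
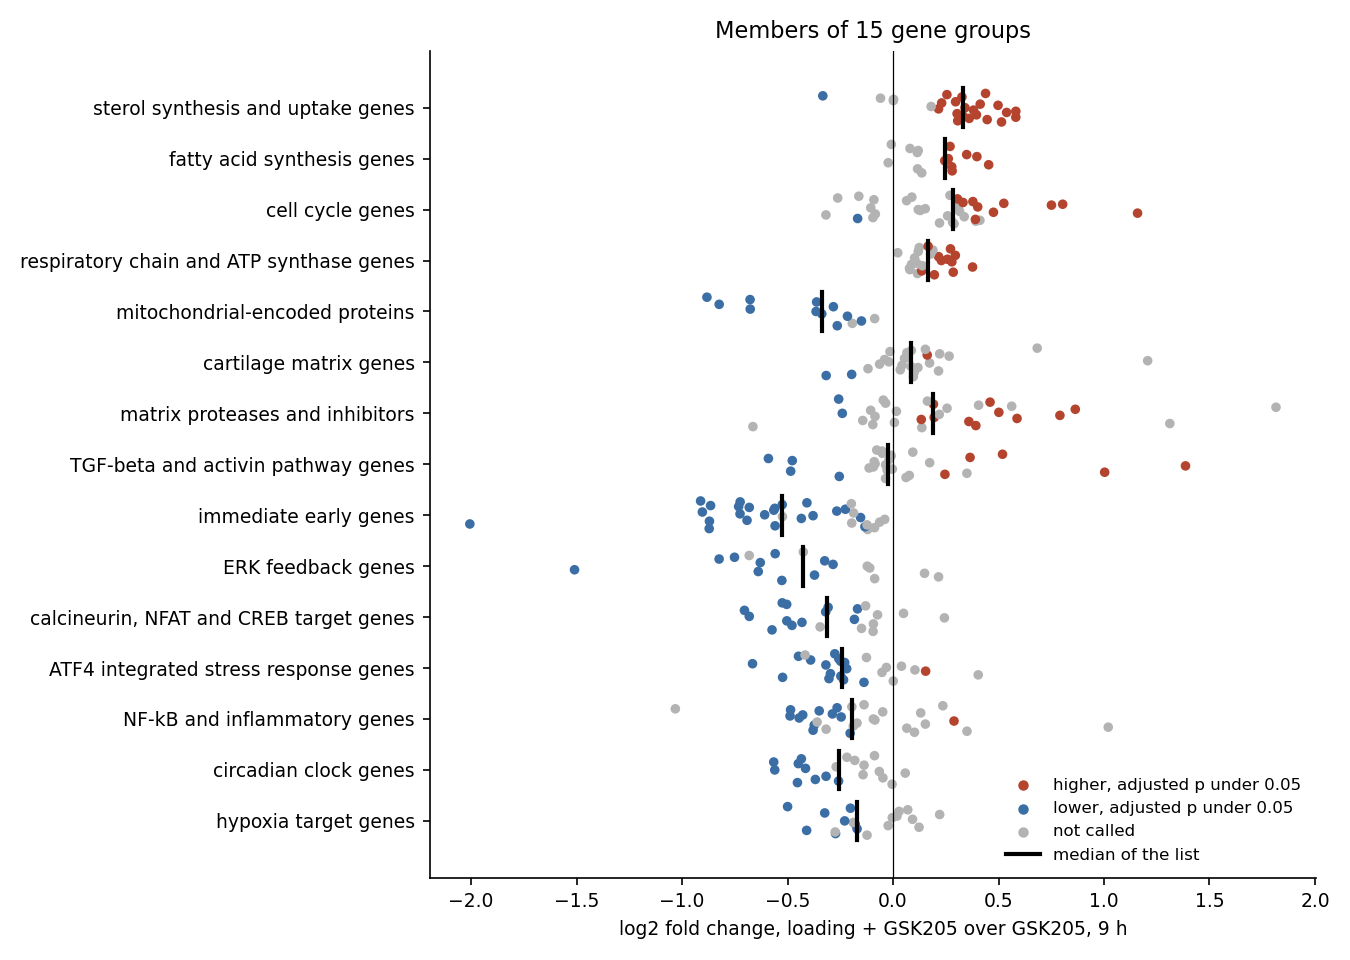
Log2 fold changes, loading with GSK205 over GSK205 alone at 9 h, for the tested members of 15 gene groups. Each dot is a gene, red if called higher, blue if called lower and grey if not called, and the black bar is the median of the group. Sterol synthesis genes lie mostly right of 0 (median 0.332), and all 32 immediate early genes lie left of it (median -0.525).

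Lipid synthesis genes rose together. In sterol synthesis and uptake, 20 of 25 genes rose against a background of 8.82% of all genes and 1 fell (median 0.332). HMGCS1, which makes HMG-CoA for the mevalonate pathway, had 604, 614, 573 and 622 CPM in constructs loaded with GSK205, against 481, 410, 408 and 363 CPM with GSK205 alone (0.54 ± 0.06, adjusted p = 2.4e-07). ACAT2 (0.51 ± 0.05), HSD17B7 (0.58 ± 0.06), EBP (0.58 ± 0.06) and INSIG1 (0.22 ± 0.04) were higher. SREBF2, which encodes the transcription factor that drives this pathway, was the gene that fell, at 214 ± 9.65 CPM against 270 ± 30.6 CPM (-0.33 ± 0.06). Fatty acid synthesis genes had 8 of 15 higher (median 0.245), led by the desaturases FADS1 (0.40 ± 0.05) and FADS2 (0.35 ± 0.05), with ACLY at 0.28 ± 0.05 and SCD at 0.27 ± 0.05. Of 10 sterol efflux and LXR target genes, 4 rose (median 0.161): the lysosomal transporters NPC2 (0.26 ± 0.05) and NPC1 (0.22 ± 0.05), SOAT1 (0.32 ± 0.07) and the exporter ABCA1 (0.35 ± 0.08).

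Genes of replication and respiration were higher in part, where 8.82% of all genes were called higher and 9.2% lower. Among cell cycle genes, 10 of 33 rose and 1 fell (median 0.282). MCM3, a subunit of the replicative helicase, had 16.7, 17.4, 16.7 and 17.1 CPM against 8.95, 10.3, 9.37 and 10.3 CPM (0.80 ± 0.07, adjusted p = 4.1e-09), and MCM2 (0.75 ± 0.12), MCM4 (0.53 ± 0.10), MCM6 (0.38 ± 0.05) and PCNA (0.31 ± 0.06) rose. Of the 6 genes MCM2 to MCM7, a list chosen after the data were seen, 5 rose. MKI67, a marker of cycling cells, was at 2.33 ± 0.277 CPM against 2.47 ± 0.714 CPM (-0.09 ± 0.22, adjusted p = 0.84), and CCND2 fell (-0.17 ± 0.05). Nuclear genes of the respiratory chain and ATP synthase had 11 of 23 higher and, with TMM scaling, all 23 positive (median 0.166), for instance ATP5F1A at 0.20 ± 0.04, but 7 without library 2 of the loaded group. The 13 proteins encoded by the mitochondrial genome, a list also added after the data were seen, went the other way, with 11 lower and, with TMM scaling, all 13 negative (median -0.338). ND4, a subunit of complex I, had 67.0, 81.4, 69.9 and 85.4 CPM against 120, 127, 150 and 140 CPM (-0.82 ± 0.09, adjusted p = 9.2e-08). Cytosolic ribosomal protein genes had 8 of 29 higher (median 0.089), including RPLP0 (0.24 ± 0.05) and RPS9 (0.26 ± 0.05). That count was 4 without library 2 of the loaded group, 5 without its library 4 or without GSK205 library 2, and 13 without GSK205 library 1.

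Growth factor pathways did not move as blocks. The counts stand against 8.82% of all genes higher and 9.2% lower. Among FGF ligands and receptors, FGF1 and FGFR4 (0.24 ± 0.07) rose and FGF18, an anabolic factor of cartilage, fell (2.00 ± 0.357 CPM against 3.14 ± 0.171 CPM, -0.64 ± 0.18), of 11 tested (median -0.058). The TGF-beta and activin pathway had 5 of 28 higher and 4 lower (median -0.024). On the ligand and target side PMEPA1, INHBA, TGFBI (0.52 ± 0.07), TGFB1 (0.37 ± 0.07) and CCN2 (0.25 ± 0.06) rose. The signal transducer SMAD3 fell to 87.8 ± 10.5 CPM with loading and GSK205 against 122 ± 1.73 CPM with GSK205 (-0.48 ± 0.06), as did its inhibitor SMAD7 (-0.59 ± 0.10), INHBB (-0.49 ± 0.14) and the receptor ACVR2A (-0.25 ± 0.09). The count of 4 was 2 without library 2 of either group. In the BMP pathway, 5 of 26 rose and 6 fell (median -0.009). The ligands BMP2 (41.0 ± 3.66 CPM against 66.2 ± 8.71 CPM, -0.69 ± 0.07), BMP6 (20.9 ± 2.28 CPM against 34.5 ± 1.37 CPM, -0.72 ± 0.10) and BMP4 (-0.68 ± 0.13) were lower, and the antagonists GREM1 and NOG (1.75 ± 0.174 CPM against 0.797 ± 0.262 CPM, 1.12 ± 0.24) higher. The BMP target genes ID1 (0.31 ± 0.05) and ID4 (0.41 ± 0.07) and the joint factor GDF5 (0.44 ± 0.07) were also higher.

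In other ligand and receptor families a minority of the members changed, in both directions. Of all genes, 8.82% were called higher and 9.2% lower, 18% in all. The shares called in the TNF, prostaglandin and hedgehog lists were near that 18%. Those in the EGF receptor, IL-6, WNT and Notch lists were above it. In the EGF receptor family BTC rose (0.53 ± 0.12) and EGFR (-0.31 ± 0.06) and AREG (-0.92 ± 0.26) fell, of 10 tested (median -0.008). The IL-6 family had 4 of 16 higher and 1 lower (median -0.018): IL11RA (0.45 ± 0.08), the shared receptor IL6ST (0.21 ± 0.05), IL11 (0.50 ± 0.13) and JAK2 (0.21 ± 0.06) rose, and IL6 fell (-0.56 ± 0.13). In the TNF superfamily TNFRSF11B rose and TNFRSF1B fell (-0.23 ± 0.05), of 11 tested (median -0.055). Of 15 prostaglandin genes (median 0.083), PTGS1 (0.44 ± 0.09) and the exporter ABCC4 (0.38 ± 0.09) rose and the importer SLCO2A1 fell (-0.71 ± 0.16). PTGS2, the inducible cyclooxygenase, was at 0.13 ± 0.13 (adjusted p = 0.54). The WNT pathway had 7 of 27 higher and 2 lower (median 0.054), with the WNT-binding protein SFRP1 at 56.8 ± 2.39 CPM against 39.9 ± 1.04 CPM (0.51 ± 0.05), LRP4 at 0.84 ± 0.15, FZD7 at 0.20 ± 0.04, LRP5 at -0.27 ± 0.08 and the feedback inhibitor AXIN2 at -0.22 ± 0.07. In the Notch pathway 1 of 11 rose (DLL1, 0.43 ± 0.11) and 3 fell (HEY2, NOTCH3 and JAG2, median of the list -0.044). That count of 3 was 1 without GSK205 library 2 or 4, or without library 1 or 4 of the loaded group. Among 15 hedgehog and hypertrophy genes (median 0.03), the receptor PTCH1 (0.31 ± 0.10) and PTH1R (0.19 ± 0.06) rose and GLI3 fell (-0.30 ± 0.07).

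Cartilage matrix genes moved little. Of 26, MATN1 rose (0.16 ± 0.05) and BGN (-0.32 ± 0.05) and CHAD (-0.20 ± 0.06) fell (median 0.086), a share below the 18% of all genes. COL2A1 averaged 42845 ± 1624 CPM with loading and GSK205 against 39484 ± 3321 CPM with GSK205 (0.12 ± 0.05, adjusted p = 0.13), and ACAN 16480 ± 1062 CPM against 15418 ± 1195 CPM (0.10 ± 0.05, adjusted p = 0.21). Chondrocyte transcription factors had 2 of 14 higher and 4 lower (median -0.032). SOX9, the master regulator of the lineage, fell (494 ± 14.1 CPM against 594 ± 44.0 CPM, -0.27 ± 0.05, adjusted p = 0.00027), while its partners SOX6 (0.35 ± 0.05) and SOX5 (0.29 ± 0.05) rose. FOXO3 (-0.30 ± 0.05), RUNX1 (-0.38 ± 0.06) and ERG (-0.27 ± 0.05) also fell. Matrix proteases and their inhibitors had 10 of 29 higher and 2 lower (median 0.192). The protease inhibitor SERPINE2 (0.46 ± 0.05), ADAMTS6 (0.36 ± 0.05) and the membrane-bound MMP16 (223 ± 6.71 CPM against 158 ± 20.3 CPM, 0.50 ± 0.06) rose. TIMP3, an inhibitor of aggrecanases (-0.26 ± 0.04), and MMP14 (-0.24 ± 0.05) fell. MMP13, the main collagenase of osteoarthritic cartilage, was at 0.22 ± 0.09 (adjusted p = 0.11). Of 10 hyaluronan genes, CEMIP2, a hyaluronan-degrading enzyme (0.49 ± 0.06), and UGDH, which supplies the sugar precursor (0.39 ± 0.06), rose (median 0.179).

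A minority of the cytoskeletal and mechanotransduction genes changed. SRF and actin genes had 5 of 25 higher and 1 lower (median 0.094), with ACTG1 at 0.36 ± 0.05, TPM1 at 0.30 ± 0.05 and the focal adhesion protein ZYX at -0.51 ± 0.09. The count of 5 was 3 without GSK205 library 3 or without library 1 of the loaded group. YAP-TAZ genes had 2 of 20 higher and 6 lower (median -0.077), with WWTR1, which encodes TAZ, at 0.24 ± 0.04, the transcription factor TEAD1 at -0.29 ± 0.06 and PTPN14 at -0.31 ± 0.07. The count of 6 was 3 without library 2 of the loaded group. Among 31 mechanosensitive and calcium channel genes, 3 rose and 3 fell (median 0.026), shares near the 8.82% and 9.2% of all genes. TRPV4 itself averaged 654 ± 36.8 CPM with loading and GSK205 against 673 ± 67.0 CPM with GSK205 (-0.04 ± 0.06, adjusted p = 0.68), and PIEZO1 101.4 ± 4.83 CPM against 108 ± 17.1 CPM (-0.09 ± 0.08, adjusted p = 0.53). The potassium channel KCNN4 (0.75 ± 0.20), the calcium pump ATP2A2 (0.14 ± 0.04) and the calcium release channel ITPR1 (0.31 ± 0.09) were higher. PKD2 (-0.15 ± 0.04), STIM1 (-0.29 ± 0.08) and CACNA1H (-0.32 ± 0.10) were lower, a count of 3 that was 1 without library 2 of the loaded group.

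Protein folding, redox and metabolic genes were split, set against 8.82% of all genes higher and 9.2% lower. The ER chaperone list had 4 of 20 higher and 6 lower (median 0.045), with the chaperone HSPA5 at 0.22 ± 0.04 and the unfolded protein response targets DNAJB9 at -0.35 ± 0.05 and HERPUD1 at -0.23 ± 0.04. Cytosolic heat shock genes had 6 of 18 higher and 3 lower (median 0.066). HSPA8, HSPH1 (0.33 ± 0.05), HSPD1 (0.32 ± 0.05) and HSPE1 (0.38 ± 0.06) rose, and the small chaperone HSPB8 (-0.31 ± 0.05), its partner BAG3 (-0.41 ± 0.07) and DNAJB1 (-0.16 ± 0.05) fell. NRF2 targets had 5 of 20 higher and 2 lower (median 0.132), with NQO1 at 112 ± 4.81 CPM against 75.3 ± 7.32 CPM (0.57 ± 0.06) and HMOX1 at 88.3 ± 3.43 CPM against 121 ± 12.6 CPM (-0.45 ± 0.06). The 5 became 3 without library 2 of either group and 8 without GSK205 library 1 or 4. Targets of the aryl hydrocarbon receptor had 3 of 10 higher and 1 lower (median -0.018), the 3 being CYP1A1, CYP1B1 and NQO1. Metallothionein and zinc transport genes had 4 of 11 higher and 3 lower (median 0.03), with the zinc importer SLC39A6 at 0.32 ± 0.04 and the exporter SLC30A1 at -0.37 ± 0.08, and the count of 4 was 2 without GSK205 library 4 or without library 3 of the loaded group. Glycolysis genes had 5 of 21 higher and 5 lower (median -0.003). The lactate exporter SLC16A3 fell to 44.4 ± 3.36 CPM with loading and GSK205 against 79.1 ± 5.82 CPM with GSK205 (-0.83 ± 0.08) and the hexokinase HK2 fell (-0.60 ± 0.06), while PFKM (0.38 ± 0.06) and LDHB (0.29 ± 0.04) rose. The count of 5 higher was 3 without GSK205 library 3 or without library 2 of the loaded group. Of 22 interferon-stimulated genes (median 0.133), 1 rose and 1 fell (IRF1, -0.30 ± 0.09), shares below those of all genes.

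Lists of other cell types changed in a few members, where 18% of all genes were called. Of 11 fibroblast genes, PDGFRA and COL5A2 rose and COL5A1 and PDGFRB fell, and of 7 leukocyte genes CD79A fell, at 0.883 ± 0.208 CPM against 1.80 ± 0.416 CPM. The endothelial and mural list (8 tested) had a median of -0.034 and a smallest adjusted p of 0.16 (MYH11). The adipocyte, muscle and erythroid list (4 tested) had a median of 0.052 and a smallest adjusted p of 0.38 (PLIN1).

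The same loading without GSK205, set against DMSO, was read from other libraries of the same model. It called 3926 genes (23.7%), 2068 higher (12.5%) and 1858 lower (11.2%). Of the genes called, 1487 were shared with the comparison under GSK205, which is 49.9% of the 2981 and 37.9% of the 3926, and 1418 of them moved in the same direction and 69 in opposite directions. Whether the loading difference itself depended on GSK205 was tested as an interaction, the log2 fold change with GSK205 minus that without. It was called for 767 genes (4.64%), 368 positive (2.22%) and 399 negative (2.41%). The loading difference was smaller in size with GSK205 for 419 of them and larger for 348. By sign alone, whether called or not, the 2 differences were opposite for 543. Calls in opposite directions were fewer: 33 were higher with GSK205 and lower without, and 36 the reverse. For 11 both were called higher and for 44 both lower. A further 85 were called higher and 185 lower only with GSK205. Only without it, 134 were called higher and 221 lower, and 18 were called in neither comparison. The signs alone do not show that GSK205 reversed the response. Leaving out DMSO library 2 lowered the count of 767 to 505, and leaving out GSK205 library 4 gave 648.

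PMEPA1, TNFRSF11B and FGF1 rose without GSK205 too. PMEPA1 had a log2 fold change of 1.39 ± 0.10 with GSK205 and 1.40 ± 0.10 without (interaction -0.01 ± 0.13, adjusted p = 0.98), and TNFRSF11B 1.44 ± 0.06 with and 1.21 ± 0.06 without (0.23 ± 0.09, adjusted p = 0.12). FGF1 had 2.28 ± 0.21 with and 1.62 ± 0.19 without (0.66 ± 0.29, adjusted p = 0.23). These values do not show that the differences are equal, only that the test did not separate them. In the sterol list, 17 of 25 rose without GSK205, against 12.5% of all genes. The interaction was called for 2, both positive, where 2.22% of all genes were called positive. HSD17B7 was 1 of them (0.39 ± 0.09).

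For targets of the aryl hydrocarbon receptor the loading difference was often lower with GSK205. Of 10 tested, 7 rose without it (median 0.558), against 12.5% of all genes. The interaction was called negative for 5, against 2.41% of all genes. CYP1B1, an estrogen- and xenobiotic-oxidising enzyme, had 1023, 1075, 1004 and 1106 CPM in constructs loaded with GSK205 against 929, 774, 764 and 868 CPM with GSK205 alone (0.34 ± 0.06), and averaged 991 ± 79.6 CPM in constructs loaded without it against 409 ± 9.87 CPM in DMSO (1.28 ± 0.06). The interaction was -0.94 ± 0.09 (adjusted p = 1.8e-07). The means of the loaded groups differed less than those of the unloaded groups. CYP1A1 averaged 57.1 ± 1.99 CPM against 27.9 ± 3.47 CPM under GSK205 and 61.6 ± 13.1 CPM against 20.3 ± 0.948 CPM without (interaction -0.57 ± 0.15, adjusted p = 0.025). TIPARP, which restrains the receptor, was at -0.19 ± 0.08 with GSK205 and 0.66 ± 0.08 without (interaction -0.86 ± 0.11, adjusted p = 2e-05).

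For immediate early genes, the interaction was called negative for 12 of 32 and positive for 2, against 2.41% and 2.22% of all genes. Without GSK205, 17 fell and 3 rose, against 11.2% and 12.5% of all genes. KLF4 averaged 321 ± 25.1 CPM against 601 ± 29.4 CPM under GSK205, and 305 ± 9.03 CPM with loading alone against 380 ± 20.9 CPM in DMSO (interaction -0.59 ± 0.07, adjusted p = 1.1e-05). ATF3 averaged 58.3 ± 4.95 CPM against 106 ± 6.71 CPM under GSK205, and 53.1 ± 2.93 CPM against 69.1 ± 3.51 CPM without (-0.50 ± 0.08, adjusted p = 0.00048). For both genes the mean with GSK205 alone lay above that with DMSO, a difference that was not tested here. IER3, which modulates cell survival, changed in opposite directions, with 89.0, 91.8, 90.8 and 93.0 CPM against 115, 119, 129 and 130 CPM under GSK205 (-0.43 ± 0.06), and 92.3 ± 2.04 CPM against 70.1 ± 8.68 CPM without (0.40 ± 0.06; interaction -0.83 ± 0.08, adjusted p = 4.4e-07). FOSB was 1 of the 2 positive members, at 3.79 ± 0.451 CPM against 3.97 ± 0.755 CPM under GSK205 and 5.81 ± 0.938 CPM against 11.6 ± 0.601 CPM without (0.94 ± 0.15, adjusted p = 0.00024), and EGR1 was the other (0.43 ± 0.13, adjusted p = 0.045).

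The interaction was called for at least 4 members, against 4.64% of all genes, in 6 other lists. These were the NF-kB list (8 of 29, all negative), the ATF4 list (7 of 24, all negative), the p53 targets (4 of 18, all negative), the BMP list (3 positive and 1 negative of 26), the chondrocyte transcription factors (4 of 14, all positive) and the channels (4 positive and 1 negative of 31). SOX6 was at 0.35 ± 0.05 with GSK205 and -0.15 ± 0.05 without (interaction 0.50 ± 0.07), and SOX5 at 0.29 ± 0.05 and -0.22 ± 0.05 (0.51 ± 0.07). GREM1 rose by 0.85 ± 0.07 with GSK205 and by 0.19 ± 0.07 without (interaction 0.66 ± 0.09, adjusted p = 6.6e-05). Without GSK205, 12.5% of all genes rose and 11.2% fell. Of the ribosomal protein genes, 27 of 29 rose without GSK205 (median 0.236) against 8 with it, and the interaction was called for 2. In the respiratory list 20 of 23 rose without GSK205 (median 0.232), and 11 of the 13 mitochondrial-encoded genes fell (median -0.488).

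**Figure D4:**
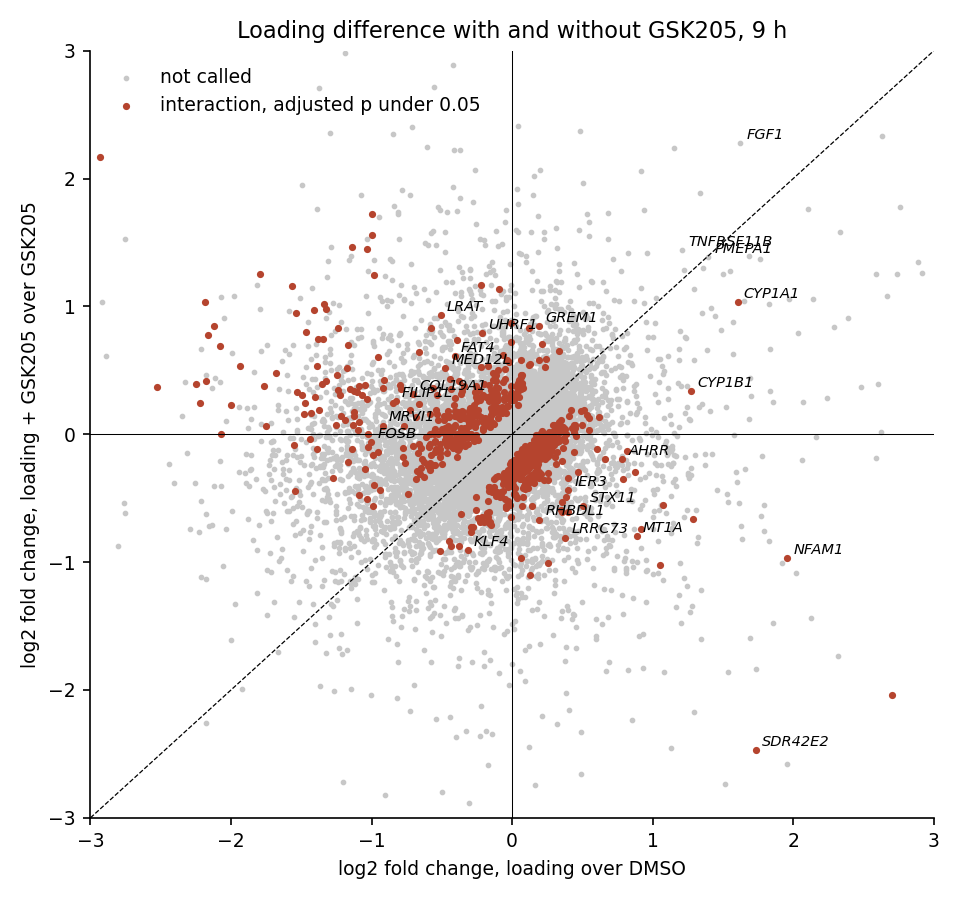
Each point is a gene, with the log2 fold change of loading over DMSO on the horizontal axis and that of loading with GSK205 over GSK205 alone on the vertical axis, at 9 h. Red points passed the interaction test (767 genes), the dashed line marks equal changes, and both axes end at 3. PMEPA1 lies near the dashed line, whereas IER3 and MT1A lie right of 0 and below it.

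The 16 genes with the largest interactions were mostly scarce. On the positive side were LRAT (1.44 ± 0.29), FILIP1L (1.09 ± 0.28), FAT4 (1.02 ± 0.13), COL19A1 (1.02 ± 0.15), UHRF1 (1.01 ± 0.28), MED12L (0.99 ± 0.21), MRVI1 (0.99 ± 0.21) and FOSB. FAT4, a giant cadherin of the Hippo pathway, averaged 11.4 ± 1.29 CPM against 7.43 ± 0.648 CPM under GSK205, and 9.83 ± 0.396 CPM against 13.1 ± 1.53 CPM without. Like TNFRSF11B, its entry is annotated as a pseudogene and took its symbol from the list of gene names. On the negative side were SDR42E2 (-4.20 ± 1.03), NFAM1 (-2.92 ± 0.80), MT1A (-1.69 ± 0.19), LRRC73 (-1.19 ± 0.32), STX11 (-1.07 ± 0.20), AHRR (-0.98 ± 0.27), CYP1B1 and RHBDL1 (-0.86 ± 0.24). MT1A, a metal-binding metallothionein, had 14.5, 16.4, 20.0 and 10.7 CPM against 25.2, 27.2, 26.6 and 28.2 CPM under GSK205, and 8.67, 5.68, 6.56 and 7.49 CPM against 3.89, 3.27, 4.15 and 4.19 CPM without, and near-identical metallothionein genes may share its reads. SDR42E2 had 11.3, 3.97, 6.89 and 9.44 CPM against 48.7, 67.5, 3.96 and 53.2 CPM under GSK205, so GSK205 library 3 lay among the loaded libraries. Calls that were lost on leaving out a library were those of NFAM1 (9 of the 16 libraries), AHRR (7), UHRF1 (6), RHBDL1 (6), LRRC73 (4) and FILIP1L (1). Without GSK205 library 4, LRRC73 was at -0.87 (adjusted p = 0.0916) and RHBDL1 at -0.71 (adjusted p = 0.0857).

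The response under GSK205 at 9 h was compared with that at 3 h, the end of loading, in a model of all 48 libraries of the TRPV4 experiment. The 2 differences share no library. At 9 h 2722 and at 3 h 2288 of 17447 genes were called (13.1% at 3 h, 8.41% higher and 4.71% lower), 681 in both, which is 25.0% of the 9 h and 29.8% of the 3 h calls. Of the 681, 415 moved in the same direction and 266 in opposite directions, of which 211 were higher at 3 h and lower at 9 h. The difference between the times was called for 1906 genes (10.9%), 745 positive (4.27%) and 1161 negative (6.65%).

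Many immediate early genes had the opposite sign at the 2 times. At 3 h, 21 of 32 were called higher in constructs loaded with GSK205 than with GSK205 alone, against 8.41% of all genes. The change between the times was called negative for 28 (median -1.10), against 6.65% of all genes. Of the 32, 13 were called higher at 3 h and lower at 9 h, as were 211 of all 17447 genes. These calls are from the model of both times, in which JUN passed edgeR's test at 9 h (-0.51 ± 0.18, adjusted p = 0.046). It did not pass in the model of 9 h alone. JUNB, an AP-1 subunit, averaged 36.2 ± 0.660 CPM against 46.7 ± 3.56 CPM at 9 h, and 243 ± 43.5 CPM against 33.2 ± 1.69 CPM at 3 h (difference between the times -3.24 ± 0.14, adjusted p = 1.5e-23). Loading with GSK205 thus lay above GSK205 alone at 3 h in every library and below it at 9 h. ATF3 averaged 58.0 ± 4.88 CPM against 105 ± 6.55 CPM at 9 h, and 118 ± 9.42 CPM against 49.2 ± 1.65 CPM at 3 h (-2.13 ± 0.08, adjusted p = 7.3e-26). IER3 averaged 90.7 ± 1.62 CPM against 122 ± 7.28 CPM at 9 h, and 136 ± 16.3 CPM against 63.4 ± 0.430 CPM at 3 h (-1.52 ± 0.10). For ATF3 and IER3 the level with GSK205 alone was higher at 9 h than at 3 h and the level with loading was lower, and these changes of single groups were not tested. KLF4 differed from this order, at 320 ± 25.0 CPM against 593 ± 30.0 CPM at 9 h and 537 ± 16.1 CPM against 505 ± 17.0 CPM at 3 h (0.09 at 3 h, adjusted p = 0.30).

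Several other genes had risen at 3 h and not at 9 h. SMAD7, the inhibitor of TGF-beta signalling, averaged 5.54 ± 0.321 CPM against 8.29 ± 1.23 CPM at 9 h, and 14.2 ± 1.12 CPM against 2.63 ± 0.230 CPM at 3 h (-3.0 ± 0.16, adjusted p = 2.2e-20). HES1, a Notch target and repressor, averaged 2.11 ± 0.458 CPM against 1.84 ± 0.490 CPM at 9 h, and 10.0 ± 1.25 CPM against 1.90 ± 0.471 CPM at 3 h (-2.19 ± 0.29). HOOK2, which lies next to JUNB on chromosome 2, averaged 10.5 ± 0.968 CPM against 11.7 ± 1.36 CPM at 9 h, and 39.7 ± 6.36 CPM against 8.79 ± 1.18 CPM at 3 h (-2.32 ± 0.17). DUSP8 (-2.25 ± 0.35) and FOSL1 (-2.17 ± 0.19) completed this set with PGR (-3.20 ± 1.04), which at 3 h had 7.36, 0.497, 8.47 and 1.11 CPM in loaded libraries and lost its call on leaving out 10 of the 16 libraries in turn. The difference between the times was called negative for 12 of 17 ERK feedback genes and 12 of 18 p53 targets, against 6.65% of all genes. It was also called negative for 11 of 24 ATF4 targets and 9 of 29 NF-kB genes.

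Other genes had a positive difference between the times. TNFRSF11B averaged 201 ± 18.9 CPM against 73.6 ± 7.45 CPM at 9 h and 62.7 ± 3.05 CPM against 51.6 ± 3.41 CPM at 3 h (1.17 ± 0.09, adjusted p = 7.6e-14). FGF1 rose at both times, to 5.71 ± 1.75 CPM against 1.19 ± 0.544 CPM at 9 h and 7.78 ± 2.53 CPM against 1.58 ± 0.244 CPM at 3 h. Its difference between the times did not pass edgeR's test (0.003 ± 0.26, adjusted p = 0.998). Scarcer genes with a positive difference were LPAR4 (1.64 ± 0.40), EHD3 (1.44 ± 0.37), PIH1D2 (1.41 ± 0.32), CAPS2 (1.38 ± 0.37), HMGB3 (1.32 ± 0.45), SH3BGRL2 (1.32 ± 0.39) and the metal importer SLC39A8 (1.30 ± 0.34). EHD3 (-0.92 ± 0.27, adjusted p = 0.013) and PIH1D2 (-0.72 ± 0.22, adjusted p = 0.021) had fallen at 3 h in edgeR's test, and EHD3 did not pass it at 9 h (0.52 ± 0.25, adjusted p = 0.17). HMGB3 lost its call on leaving out 12 of the 16 libraries in turn, and SH3BGRL2 without GSK205 library 4 or without library 2 of the loaded group at 9 h.

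The sterol list rose at both times, in 18 of 25 genes at 3 h, with 1 lower. The rise of INSIG1 was smaller at 9 h (difference between the times -0.72 ± 0.08), whereas that of HSD17B7 was larger (0.40). In the cell cycle list the difference between the times was called positive for 7 of 33, against 4.27% of all genes. In the list of MCM2 to MCM7 it was called positive for 4 of 6. Respiratory chain genes had a median difference of 0.105 over 23 genes and a smallest adjusted p of 0.077 (NDUFA9), and mitochondrial-encoded genes a median of -0.036 over 13 and a smallest adjusted p of 0.61 (ND3).

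**Figure D5:**
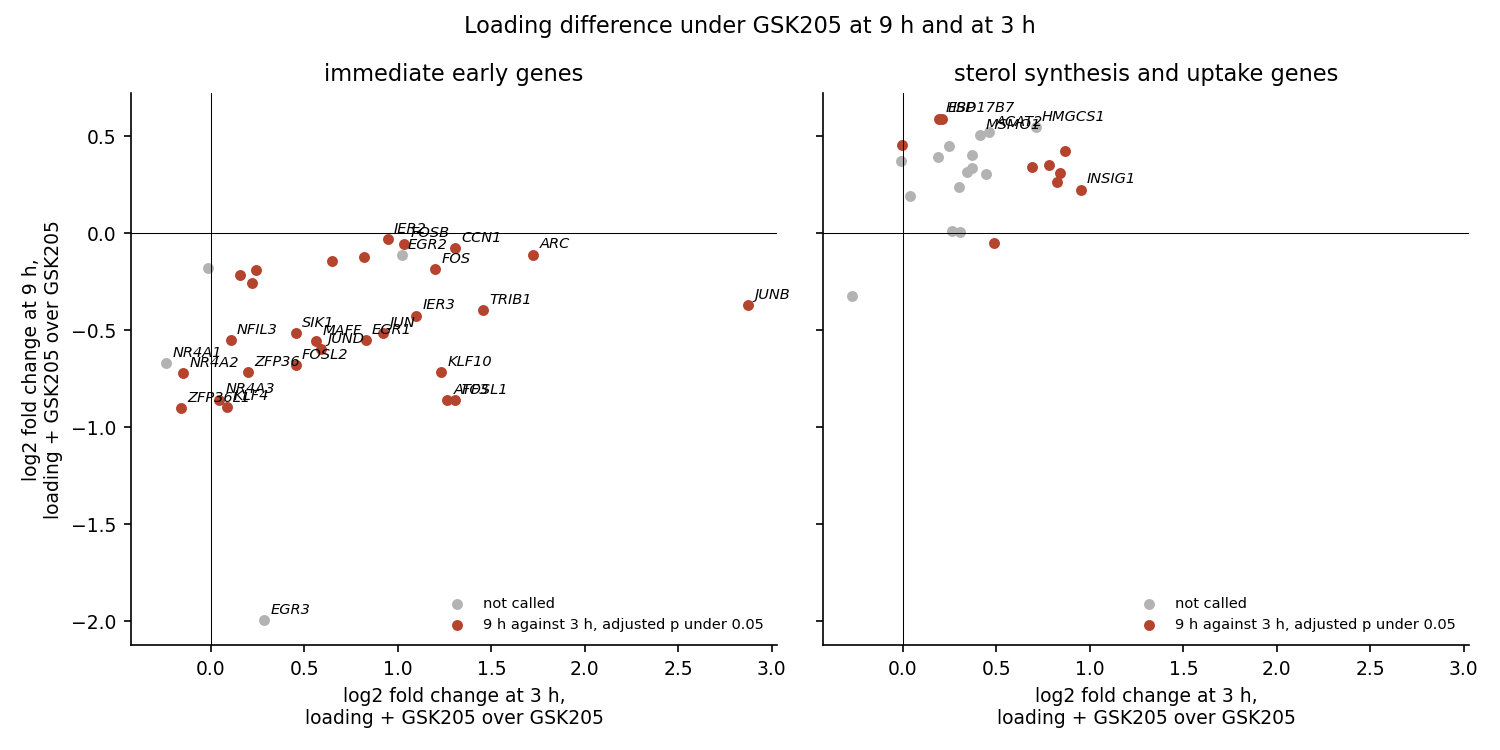
Log2 fold changes of loading with GSK205 over GSK205 alone at 3 h (horizontal) and at 9 h (vertical) for immediate early genes (left) and sterol synthesis and uptake genes (right). Red points passed the test between the times. Immediate early genes lie mainly at the lower right, up to JUNB at 2.87 at 3 h, and sterol genes mainly at the upper right.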

How the data were processed

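The submitters' processing notes name Trim Galore, STAR and HTSeq and the genome build Sscrofa11.1. Their versions and HTSeq's strand setting were not stated in any source used here. The authors deposited a table of raw counts, whole numbers per gene and library, in which 481 repeated lines with identical counts were removed, leaving 31907 identifiers. Every value column belonged to a sample. Per the labels' protocols the libraries were made after removal of ribosomal RNA, although the molecule label reads polyA RNA. Of the counts from 1 to 20, 67.5% to 72.9% per library were even, and no source used here says why. Positions are RefSeq's on Sscrofa11.1.

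The tests used edgeR 4.0.16 in R 4.3.3 (TMM scaling, filterByExpr with a minimum count of 10, then glmQLFit and glmQLFTest, 1 term per group) on the 24 libraries at 9 h of the TRPV4 experiment, or all 48 for the comparison of times. These libraries include the GSK101 and IL-1 groups. The filter, the scaling and the estimate of the spread therefore draw on those groups too. Genes were called at a Benjamini-Hochberg adjusted p under 0.05 over all genes tested. CPM use TMM-scaled totals, so those of the 2 models differ slightly. The calls at 9 h differ between the 2 models as well. Errors are SD over 4 libraries for CPM and SE for log2 fold changes. No 2 libraries of loading with GSK205 or of GSK205 alone at 9 h agreed within sampling noise, and the other groups were not compared in this way. Genes named are the 15 with the largest rise and the 15 with the largest fall among called genes with a symbol, separate groups and a mean of at least 2 CPM in the higher group, the 8 and 8 with the largest interaction or difference between times, and from each gene or marker list the members with the smallest p and those that define a pathway. CD79A, MMP13, PTGS2 and some further list members were named after their values were seen. A gene that this rule names and a few list members are not reported here, although counts over all genes and lists include them. The comparison, its members and the lists were chosen with earlier results of these data known. Alternatives used DESeq2 1.42.0 and limma 3.58.1.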

Additional observations from a re-analysis of the deposited data

Results flagged for a closer look

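In 9 of the 178 sets of 4 libraries examined, a library lay far from the other 3 by Dixon's test. Chance gives about 1 set in 20, so this number is near that of chance. GSK205 library 1 at 9 h had 4.85 CPM for DUSP8, below the others. GSK205 library 4 at 9 h had 4.80 CPM for LRRC73, above the others, and library 1 of loading alone had 1.42 CPM. DMSO library 4 at 9 h had 3.21 CPM for RHBDL1. EHD3 stood apart at 1.60 CPM in library 2 of loading with GSK205 at 9 h and at 0.522 CPM in library 3 of that group at 3 h. SLC39A8 was at 1.24 CPM in library 4 of loading with GSK205 at 9 h, and HOOK2 at 10.5 CPM in GSK205 library 2 at 3 h. The total of 40167217 counts in library 2 of loading with GSK205 at 9 h was above the other totals of its group.

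The loading difference with GSK205 differed from that without at 9 h, by the interaction test, for 21 of the genes named by the size of their rise, fall or interaction, and other genes in the text passed that test too. The value, on the log2 scale, was -0.57 for CYP1A1, -0.40 for ZFP36L1, -0.59 for KLF4, -0.50 for ATF3 and -0.43 for FOSL1. It was 1.44 for LRAT, 1.09 for FILIP1L, 1.02 for FAT4, 1.02 for COL19A1, 1.01 for UHRF1, 0.99 for MED12L, 0.99 for MRVI1 and 0.94 for FOSB. On the negative side it was -4.20 for SDR42E2, -2.92 for NFAM1, -1.69 for MT1A, -1.19 for LRRC73, -1.07 for STX11, -0.98 for AHRR, -0.94 for CYP1B1 and -0.86 for RHBDL1.

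The loading difference under GSK205 at 9 h differed from that at 3 h for the 15 genes given here, which were named by the size of that difference, and other genes in the text passed that test too. The value was 1.64 for LPAR4, 1.44 for EHD3, 1.41 for PIH1D2, 1.38 for CAPS2, 1.32 for HMGB3, 1.32 for SH3BGRL2 and 1.30 for SLC39A8. It was -3.24 for JUNB, -3.20 for PGR, -3.0 for SMAD7, -2.32 for HOOK2, -2.25 for DUSP8, -2.19 for HES1, -2.17 for FOSL1 and -2.13 for ATF3.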

How the results depend on the processing

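The genes named from the 15 with the largest rise and the 15 with the largest fall under loading with GSK205 kept their call and direction under DESeq2, RLE size factors, other count filters, the model of the compared groups alone, the replicate block, removal of small RNAs, thinning (chosen after seeing the data) and each left-out library. Testing against a fold of 1.2 in place of no change lost CASZ1, GNMT and RASGRP4, as well as 8 of the 16 genes with the largest interaction and 3 of the 16 with the largest difference between the times. Thinning lost 2 and 4 of these. That stricter test left 254 genes for loading with GSK205 (34.6% higher, against 48.9%), 526 for loading against DMSO (19.0% higher, against 52.7%), 57 interactions (70.2% positive, against 48%) and 478 for 9 h against 3 h (23.6% positive, against 39.1%). DESeq2 gave 1155 interactions. Leaving out single libraries gave 2198 to 3070, 3024 to 3630, 505 to 896 and 1596 to 1941 calls in these 4 comparisons. The numbers of the samples did not pair them: same-numbered libraries correlated at -0.0209 to 0.0282, and a replicate block gave 2876 calls with GSK205, 3763 without, 713 interactions and 1857 between the times. No result reversed. Counts within lists fell most under the fold of 1.2, which left 14 immediate early genes lower and 6 sterol genes higher. The cause of these changes was not tested. The deeper libraries of the loaded group, small effects and 4 libraries a group limit what scarce genes can show.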
